A study of Mus musculus with 11 samples.

Results

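The 8 genes described here encode CC chemokines that attract monocytes and related leukocytes. They are Ccl2, Ccl7, Ccl12, Ccl8, Ccl9, Ccl6, Ccl3 and Ccl4, and were taken by symbol from the 25677 genes of the count table, where all 8 were found. RNA came from whole kidneys of female mice, 1 kidney library for each, taken at week 21. The normal control group (Ctr) held 3 C57BL/6J mice, the MRL/lpr group (Lpr) 4 untreated mice and the DNase I treatment group (DNase) 4 MRL/lpr mice injected intraperitoneally every day from week 17 until that time. Both MRL/lpr groups carry the lpr mutation of Fas throughout the body, and Ctr differs from them in strain as well as in disease, which cannot be told apart here. DNase I cuts extracellular DNA.

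CC chemokines are small secreted proteins named for a pair of adjacent cysteines. They bind to receptors on leukocytes and draw these cells from the blood into inflamed tissue. Ccl2, Ccl7 and Ccl12 are ligands of Ccr2, the receptor that brings inflammatory monocytes into tissue. Ccl8 is a relative of these monocyte chemoattractants that in the mouse acts mainly on Ccr8. Ccl6 and Ccl9 are rodent chemokines made by myeloid cells that act on Ccr1. Ccl3 and Ccl4 are the macrophage inflammatory proteins, and Ccl3 binds to Ccr1. In lupus nephritis, leukocytes that enter the kidney are a source and a target of these signals.

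The 8 genes lie in 2 clusters on chromosome 11 of GRCm38 (mm10), by the GENCODE annotation. Ccl2, Ccl7, Ccl12 and Ccl8 stand in this order on the plus strand within 81229 bases, from 82035571 to 82116799. Ccl9, Ccl6 and Ccl3 on the minus strand and Ccl4 on the plus strand lie within 91765 bases, from 83572919 to 83664683. The gap between Ccl8 and Ccl9 is 1456119 bases. Each has 3 exons, except Ccl6 and Ccl9, which have 4.

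The stretch of each reading frame around the cysteine pair is shown for all 8 genes because it carries the family's defining feature and shows how far the paralogs differ. It is read 5′ to 3′ on the coding strand, with the adjacent cysteine codons in capitals. In Ccl8 the stretch spans an intron, and introns are left out.
Ccl2: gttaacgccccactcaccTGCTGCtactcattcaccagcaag
Ccl7: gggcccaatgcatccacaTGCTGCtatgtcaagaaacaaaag
Ccl12: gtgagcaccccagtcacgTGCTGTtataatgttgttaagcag
Ccl8: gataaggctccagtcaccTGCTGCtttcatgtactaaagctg
Ccl9: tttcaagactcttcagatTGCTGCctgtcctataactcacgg
Ccl6: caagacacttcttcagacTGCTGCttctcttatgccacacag
Ccl3: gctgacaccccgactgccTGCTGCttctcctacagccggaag
Ccl4: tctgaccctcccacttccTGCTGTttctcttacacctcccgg
Each reading frame held exactly 1 such pair. Ccl2, Ccl7, Ccl6, Ccl8, Ccl9 and Ccl3 spell it TGCTGC, and Ccl4 and Ccl12 spell it TGCTGT.

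The paralogs could be told apart by sequencing reads. Pairwise identity of the coding sequences lay between 54.2% (Ccl6 and Ccl12) and 69.8% (Ccl8 and Ccl12). The longest run of identical bases between 2 of the transcripts was 25 bases, in Ccl6 and Ccl9, against reads of 100 bases. None of the 100-base windows of any of the 8 transcripts occurred in a transcript of another gene, and no exon of another gene overlapped them.

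Ccl2 was also the chemokine that the study measured by PCR in mouse tissue. Its primers are shown because the forward primer covers the cysteine codon pair printed above. The sense primer lies in exon 2 (chr11:82036502-82036523) and the antisense primer in exon 3 (chr11:82036966-82036987), so that the product of 161 bases crosses an intron.
sense: CACCTGCTGCTACTCATTCACC
antisense: ATGTCTGGACCCATTCCTTCTT
Neither primer matched another of the 8 transcripts.

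Between 33469858 and 38460873 counts per kidney were assigned to genes. The summed level of 10 kidney tubule and podocyte markers was between 10079 and 17187 CPM (counts divided by library size, with TMM factors applied), and each of the 10 was detected in every kidney. Lpr replicate 3 stood apart, because its counts fell with gene length by 0.39 log2 units per doubling, whereas the other slopes lay between -0.04 and 0.08. The median of the 6715 genes within the chemokines' range of lengths was 0.49 log2 units above the mean of all kidneys in Lpr replicate 3, and between -0.09 and 0.06 in the others. Several of the Ccl2 values that rest on this library are given with and without it. Nothing in the labels describes the mice of a group beyond their number, so p-values measure the spread between these libraries.

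The first comparison asked which of the 8 chemokines differ between kidneys of MRL/lpr mice and normal kidneys. All 8 were significantly higher in Lpr than in Ctr and were called in edgeR's quasi-likelihood test. A gene counts as called here when it passes the study's pair of thresholds, an adjusted p below 0.05 and a log2 fold change beyond 2 in size. Of the 16074 genes tested, 4.65% were called higher. The median log2 fold change was 3.73 for the 8 genes and 0.03 for all genes. The lowest Lpr kidney lay above the highest Ctr kidney for each of the 8, which was so for 14.2% of all genes tested. In whole tissue, more cells of a type and more RNA per cell cannot be told apart.

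**Figure D1:**
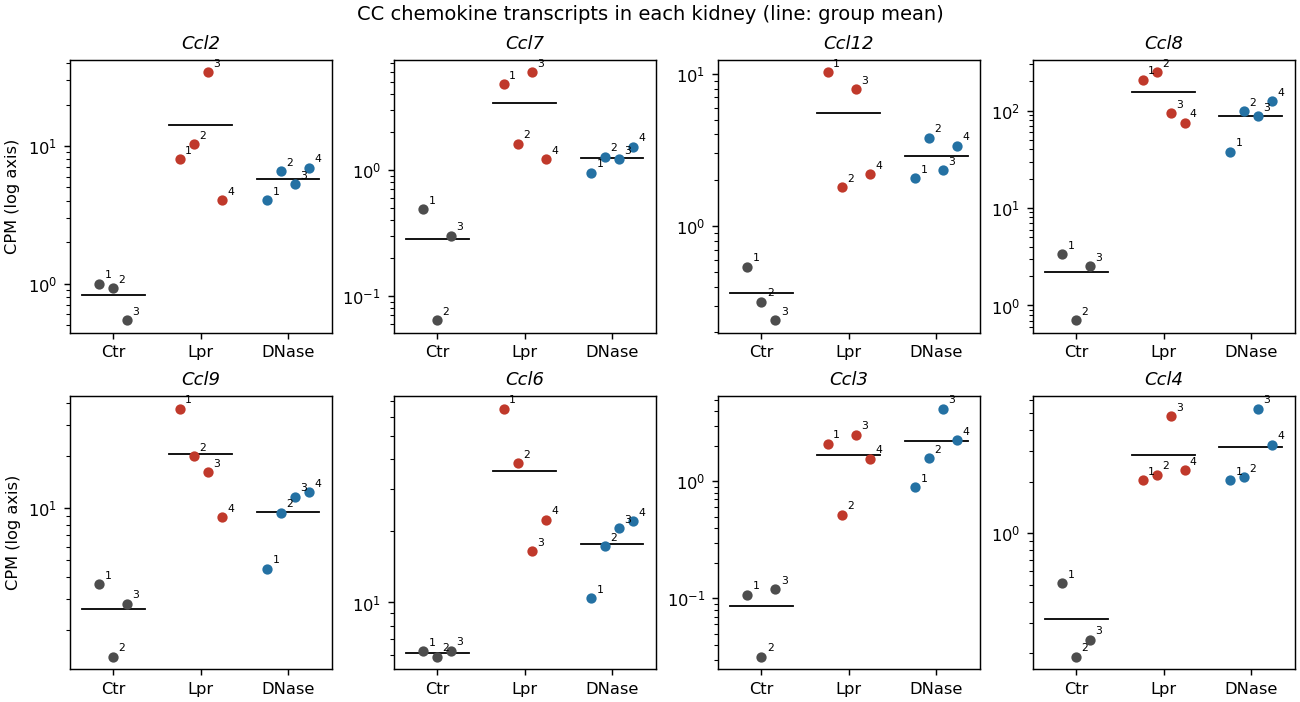
Level of each chemokine in each kidney, in CPM on a log axis, with a panel for each gene, the 3 groups on the x axis, numbers for the replicates and a line for the group mean. All 4 Lpr and all 4 DNase kidneys lie above all 3 Ctr kidneys in each panel, and the Lpr and DNase points overlap in each.

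The genes of the first cluster are described first. Ccl2 was at 0.998, 0.924 and 0.539 CPM in the 3 Ctr kidneys, at 8.06, 10.3, 34.2 and 4.02 CPM in the 4 Lpr kidneys and at 4.04, 6.56, 5.30 and 6.98 CPM in the 4 DNase kidneys. Lpr replicate 3 was 3.31 times as high as the next Lpr kidney, and the DNase kidneys lay close together. Against Ctr, Ccl2 had a log2 fold change of 4.12 ± 0.78 (SE, adjusted p = 0.0113 from edgeR), and without Lpr replicate 3 it was 3.19.

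Ccl7, its neighbour and a ligand of the same receptor, was scarce in normal kidney. It reached 0.485, 0.0638 and 0.300 CPM in Ctr, of which the second rests on 2 counts. It was at 4.75, 1.61, 5.91 and 1.22 CPM in Lpr and at 0.948, 1.27, 1.21 and 1.52 CPM in DNase. Lpr replicates 1 and 3 were high and the other Lpr kidneys were within or near the DNase range. In Lpr, Ccl7 was higher than in Ctr by a log2 fold change of 3.55 ± 0.80 (SE, adjusted p = 0.0245 from edgeR).

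Ccl12, a rodent ligand of Ccr2, split the Lpr kidneys in the same way as Ccl7. It was at 0.539, 0.319 and 0.240 CPM in Ctr, at 10.2, 1.80, 7.95 and 2.18 CPM in Lpr and at 2.06, 3.79, 2.32 and 3.37 CPM in DNase. Lpr replicates 1 and 3 lay above all DNase kidneys and Lpr replicate 2 lay below them. Ccl12 differed between Lpr and Ctr by a log2 fold change of 3.90 ± 0.76 (SE, adjusted p = 0.0125 from edgeR).

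Ccl8 was by far the most abundant of the 8 in diseased kidneys and changed most. Its level was 3.34, 0.701 and 2.52 CPM in Ctr, 208.3, 246.3, 93.6 and 75.1 CPM in Lpr and 37.8, 98.7, 87.4 and 125 CPM in DNase. Lpr replicates 1 and 2, not replicate 3, were high. Its mean rose 71.3-fold (95% interval 23.3 to 218), a log2 fold change of 6.16 ± 0.71 (SE, adjusted p = 0.00126 from edgeR). By p it was at place 192 of the 16074 genes.

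Ccl9, a ligand of Ccr1, was at 3.64, 1.40 and 2.82 CPM in Ctr, at 37.3, 19.8, 16.1 and 8.86 CPM in Lpr and at 4.49, 9.40, 11.7 and 12.3 CPM in DNase. Lpr replicate 1 was the highest kidney, and DNase replicate 1 was near the Ctr range. Its Lpr mean exceeded that of Ctr by a log2 fold change of 2.97 ± 0.54 (SE, adjusted p = 0.00899 from edgeR).

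Ccl6, its neighbour, was the steadiest of the 8 in normal kidney, with 6.23, 5.93 and 6.26 CPM in Ctr. It was at 65.2, 38.4, 16.4 and 22.3 CPM in Lpr and at 10.4, 17.3, 20.5 and 21.99 CPM in DNase. Lpr replicates 1, 2 and 4 lay above every DNase kidney, the last by a narrow margin. Ccl6 had the smallest change of the 8 between Lpr and Ctr, a log2 fold change of 2.54 ± 0.46 (SE, adjusted p = 0.00914 from edgeR).

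Ccl3, a ligand of Ccr1, was almost absent from normal kidney, where it had 4, 1 and 4 counts, or 0.108, 0.0319 and 0.120 CPM. It was at 2.09, 0.521, 2.51 and 1.56 CPM in Lpr and at 0.892, 1.57, 4.19 and 2.24 CPM in DNase. Here the highest kidney of all was DNase replicate 3 and the lowest MRL/lpr kidney was Lpr replicate 2. Its log2 fold change from Ctr to Lpr was 4.21 ± 0.71 (SE, adjusted p = 0.00658 from edgeR).

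Ccl4, its partner in the second cluster, was at 0.512, 0.191 and 0.240 CPM in Ctr, at 2.04, 2.19, 4.82 and 2.32 CPM in Lpr and at 2.04, 2.11, 5.32 and 3.27 CPM in DNase. Lpr replicate 3 and DNase replicate 3 were high and the other MRL/lpr kidneys were close to each other. From Ctr to Lpr its log2 fold change was 3.16 ± 0.53 (SE, adjusted p = 0.00618 from edgeR).

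The adjusted p of some of these genes depended on the small Ctr group. Without any 1 of the Ctr kidneys, 5 of the 8 were called. Leaving out Ctr replicate 1, 2 or 3 raised the adjusted p of Ccl2 to 0.0534, 0.0535 and 0.0593 and that of Ccl7 to 0.0574, 0.0776 and 0.0967 (edgeR). Ccl7 was also lost without Lpr replicate 1 (adjusted p = 0.0567), Ccl6 without Ctr replicate 1 (0.0508), and Ccl12 without Ctr replicate 2 (0.0627) or 3 (0.0642), whereas Ccl3, Ccl4, Ccl8 and Ccl9 stayed called without any 1 kidney. The exact permutation test on log2 CPM, two-sided, gave p = 0.0571 for each of the 8, the smallest that 3 against 4 mice can give.

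The second comparison asked whether the chemokines differ after DNase I treatment. None of the 8 was called between DNase and Lpr by edgeR or DESeq2, and adjusted p ranged from 0.82 to 0.934 in edgeR. No gene of the 15832 tested was called by edgeR (0%), and DESeq2 called 5. The difference was below 0 for 6 of the 8, where 52.9% of all genes lay below 0, and the median was -0.98 against -0.02 for all genes. At an unadjusted p under 0.05, edgeR and DESeq2 each listed Ccl2, Ccl6, Ccl7 and Ccl9, all lower in DNase, whereas 3.43% of all genes were lower in edgeR by this measure. Limma on log2(FPKM + 1) listed Ccl7 alone.

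Ccl7 had the largest difference, a log2 fold change of -1.45 (95% interval -2.57 to -0.33, adjusted p = 0.82, edgeR), and it was -1.03 without Lpr replicate 3. That of Ccl2 was -1.32 (95% interval -2.60 to -0.04), and it rested on Lpr replicate 3, since it was -0.39 without that kidney. Those of Ccl9 and Ccl6 were -1.12 (95% interval -2.09 to -0.14) and -1.02 (95% interval -1.94 to -0.11), and they were -0.66 and -0.56 without Lpr replicate 1. Ccl12 and Ccl8 were at -0.94 (95% interval -2.16 to 0.27) and -0.84 (95% interval -1.82 to 0.15). That of Ccl12 was -0.47 without Lpr replicate 1, and that of Ccl8 was -0.53 without Lpr replicate 2.

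Ccl3 and Ccl4 lay on the other side of 0. Between DNase and Lpr, the log2 fold change of Ccl3 was 0.41 (95% interval -0.82 to 1.64) and that of Ccl4 was 0.16 (95% interval -0.75 to 1.06). Both turned to lower without DNase replicate 3, with -0.095 for Ccl3 and -0.21 for Ccl4. Even for these genes the intervals reach well below 0, so that a fall after treatment is within the error, as is a rise.

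The Lpr and DNase kidneys overlapped for each of the 8 genes. The exact permutation test on log2 CPM, two-sided with 4 against 4 mice, gave p between 0.0857 for Ccl7 and 0.714 for Ccl4, where the smallest possible p is 0.0286. For Ccl2 the highest Lpr kidney was 8.52 times the lowest (2.57 times without Lpr replicate 3) and the highest DNase kidney 1.73 times the lowest. For Ccl7 these ratios were 4.85 and 1.60, and for Ccl12 they were 5.68 and 1.84. For other genes they were alike, with 4.82 and 4.69 for Ccl3, 3.28 and 3.31 for Ccl8 and 2.37 and 2.61 for Ccl4. DNase replicate 1 was the lowest DNase kidney for all 8 genes.

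Monocyte and macrophage markers and fat tissue markers were read beside these differences. None of them was called between DNase and Lpr, and the ranges of their sums overlapped. The summed level of 17 monocyte and macrophage markers was 1349 to 2621 CPM in Lpr and 1041 to 1868 CPM in DNase, with the lowest value in DNase replicate 1, none of the 17 was at 0 in any kidney, and 16 of the 17 had a log2 fold change below 0. The summed level of 5 fat tissue markers was 30.1 to 543 CPM in Lpr and 38.0 to 146 CPM in DNase, and Lep among them was at 0 in 4 of these 8 kidneys. Their part in the chemokine differences was not tested.

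The third comparison set the treated MRL/lpr kidneys against normal kidneys. All 8 chemokines were significantly higher in DNase than in Ctr at an adjusted p under 0.05, as were 13.1% of the 16100 genes tested. With the threshold on the fold change, 6 of the 8 were called, where 4.56% of all genes were called higher. Every DNase kidney lay above every Ctr kidney for all 8 genes, which was so for 18.2% of all genes. This comparison shares its Ctr kidneys with the first and its DNase kidneys with the second.

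Ccl8 had the largest change again, a 39.3-fold higher mean (95% interval 16.7 to 92.6, adjusted p = 0.000148 from edgeR). The log2 fold changes of Ccl3 and Ccl4 were 4.61 ± 0.69 and 3.31 ± 0.50 (SE), beside 4.21 and 3.16 between Lpr and Ctr. Those of Ccl12, Ccl2 and Ccl7 were 2.96 ± 0.38, 2.80 ± 0.30 and 2.09 ± 0.51 (SE), beside 3.90, 4.12 and 3.55.

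Ccl9 and Ccl6 passed the adjusted p (0.0104 and 0.00175, edgeR) with log2 fold changes of 1.85 ± 0.41 and 1.52 ± 0.24 (SE), short of the fold threshold. Ccl7 and Ccl9 stood near that threshold. Without Ctr replicate 2 or DNase replicate 4 the log2 fold change of Ccl7 was 1.64 and 1.98, and without Ctr replicate 1 or DNase replicate 1 that of Ccl9 was 2.15 and 2.08. With all 3 groups in the fit the adjusted p of Ccl7 was 0.0687.

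**Figure D2:**
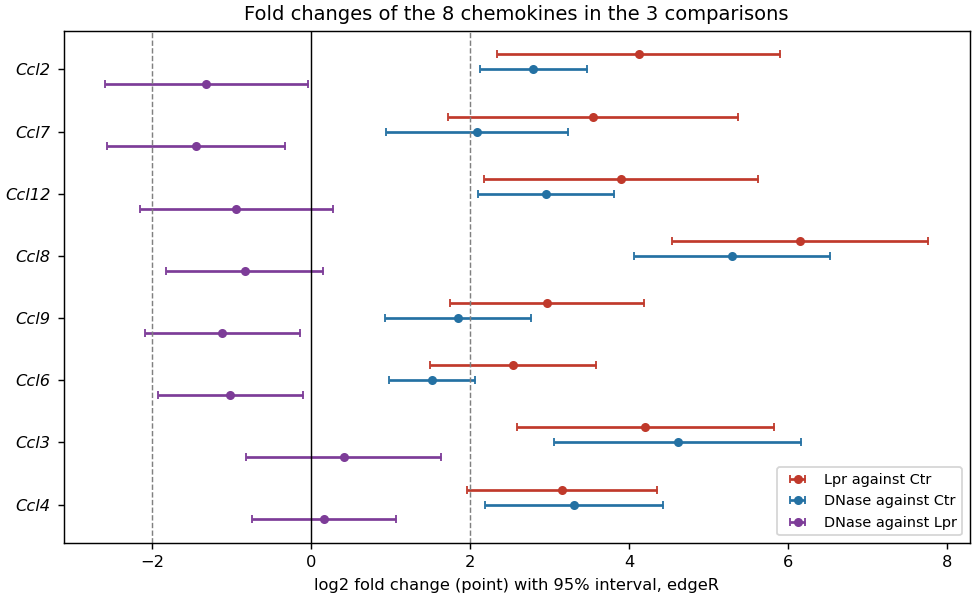
Log2 fold change of each chemokine (points) with its 95% interval (bars) from edgeR in the 3 comparisons, with a solid line at 0 and dashed lines at the fold threshold of 2 in both directions. All intervals against Ctr lie above 0, and the intervals of DNase against Lpr lie below 0 for Ccl2, Ccl7, Ccl9 and Ccl6 and span 0 for the other 4.

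Levels of different genes were compared per length, as FPKM (fragments scaled by gene length and library size). In Ctr, Ccl8 (4.17 ± 2.61 FPKM, SD, n = 3) and Ccl6 (4.13 ± 0.226) led and did not differ beyond their spread. They were followed by Ccl2 (0.979 ± 0.285), Ccl9 (0.845 ± 0.376), Ccl12 (0.659 ± 0.283), Ccl4 (0.461 ± 0.258), Ccl7 (0.344 ± 0.258) and Ccl3 (0.107 ± 0.0602). Among these 6, neighbours in the order differed by less than the larger of their SDs. In Ctr replicate 2 the order of the leading genes was the reverse, with Ccl6 above Ccl8.

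In Lpr, Ccl8 was at 306 ± 171 FPKM (SD, n = 4), with its lowest kidney, at 152, above the highest kidney of any other of the 8 genes. Ccl6 (24.8 ± 15.1), Ccl2 (17.04 ± 15.6, or 9.42 ± 4.06 without replicate 3), Ccl12 (10.1 ± 7.49), Ccl9 (6.78 ± 3.95), Ccl4 (4.24 ± 1.76), Ccl7 (4.11 ± 2.68) and Ccl3 (2.08 ± 1.01) followed. With all 4 kidneys, neighbours in this order differed by less than the larger of their SDs. Without replicate 3, Ccl6 was at 29.5 ± 14.5 FPKM, and Ccl6 and Ccl2 were further apart than either SD.

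In DNase, Ccl8 was at 176 ± 72.2 FPKM (SD, n = 4), and its lowest kidney, at 76.3, again lay above all values of the other 7 genes. Ccl6 (12.6 ± 3.62), Ccl2 (7.30 ± 1.66), Ccl12 (5.55 ± 1.59), Ccl4 (4.97 ± 2.41), Ccl9 (3.24 ± 1.20), Ccl3 (2.90 ± 1.86) and Ccl7 (1.59 ± 0.287) followed. Ccl6 and Ccl2, and Ccl2 and Ccl12, were further apart than either SD, and the later neighbours were not. By mean FPKM, Ccl8 was at place 8037 of 25677 genes in Ctr, at place 230 in Lpr and at place 384 in DNase.

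The make-up of the chemokine transcripts also differed between Ctr and the MRL/lpr groups. The 8 genes together reached 7.61 to 15.4 FPKM in Ctr, 188 to 555 FPKM in Lpr and 99.99 to 292 FPKM in DNase. Ccl8 made up 16.9% to 41.3% of this sum in Ctr, 66.6% to 89.7% in Lpr and 76.3% to 84.7% in DNase. Ccl6 made up 27.4% to 50.9% in Ctr, 4.16% to 8.97% in Lpr and 5.22% to 7.47% in DNase. Ccl2 was between 1.97% and 2.75% in 3 of the Lpr kidneys and at 15.4% in Lpr replicate 3.

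**Figure D3:**
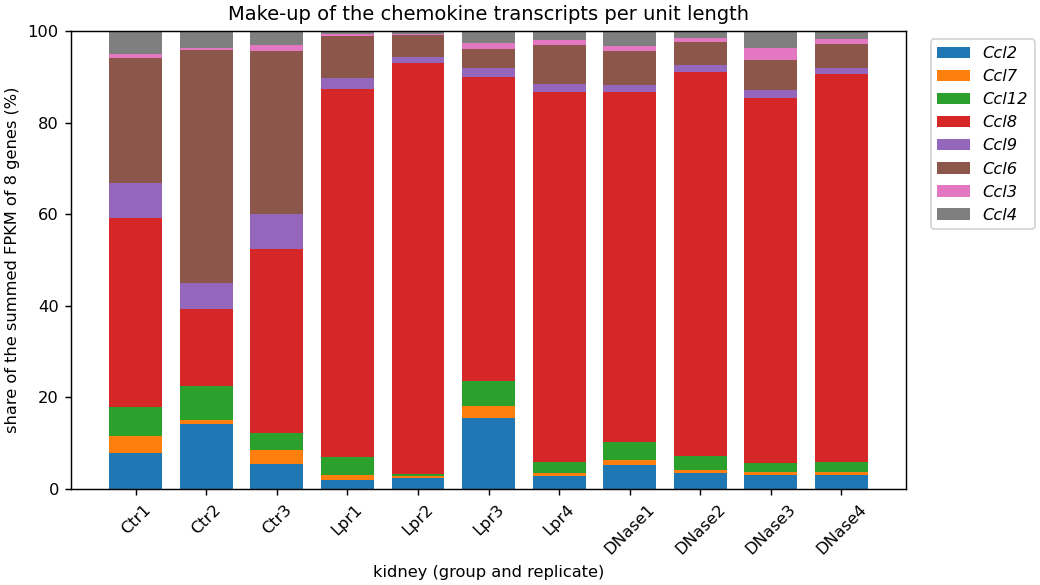
Share of each chemokine in the summed FPKM of the 8 genes, in percent, with a stacked bar for each of the 11 kidneys. Ccl8 takes between 66.6% and 89.7% of each MRL/lpr bar and at most 41.3% of a Ctr bar, where Ccl6 takes between 27.4% and 50.9%.

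The chemokines were next set against the monocyte and macrophage markers of the same kidney. The summed level of the 17 markers was 304.7 to 383.5 CPM in Ctr, below the ranges given above for Lpr and DNase, and Lyz2, the lysozyme of myeloid cells, and the complement genes C1qa, C1qb and C1qc were the most abundant of them in the MRL/lpr groups. Of the 17 markers, 11 were called higher between Lpr and Ctr and 8 between DNase and Ctr, and none was called lower. Adgre1, which encodes the macrophage antigen F4/80, had a log2 fold change of 3.11 and Ly6c2, a marker of inflammatory monocytes, of 4.22 between Lpr and Ctr (adjusted p = 0.0034 and 0.00103, edgeR).

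Relative to the marker sum, Ccl8 still separated both MRL/lpr groups from Ctr, while these groups overlapped each other. It was 0.230% to 0.872% of the marker sum in Ctr, 4.36% to 10.4% in Lpr and 3.63% to 7.60% in DNase. Ccl3 and Ccl4 separated DNase alone from Ctr, with at least 0.0857% and 0.143% in DNase and at most 0.0379% and 0.134% in Ctr. Ccl6 was 1.62% to 1.98% in Ctr, 0.765% to 3.26% in Lpr and 0.999% to 1.34% in DNase, so that the DNase kidneys lay below the Ctr kidneys. Ccl9 overlapped in all groups, with 0.460% to 0.949% in Ctr, 0.657% to 1.87% in Lpr and 0.431% to 0.750% in DNase. Ccl2 was 0.171% to 0.303% in Ctr, 0.298% to 1.59% in Lpr (0.298% to 0.403% without replicate 3) and 0.283% to 0.442% in DNase, and so overlapped as well. Ccl7 overlapped in all groups, with 0.0209% to 0.127% in Ctr, 0.0616% to 0.275% in Lpr and 0.0648% to 0.0924% in DNase. So did Ccl12, with 0.0759% to 0.141% in Ctr, 0.0686% to 0.510% in Lpr and 0.124% to 0.256% in DNase. These ratios are descriptions, since neither the source of each transcript nor the RNA content of a cell is measured in whole kidney.

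**Figure D4:**
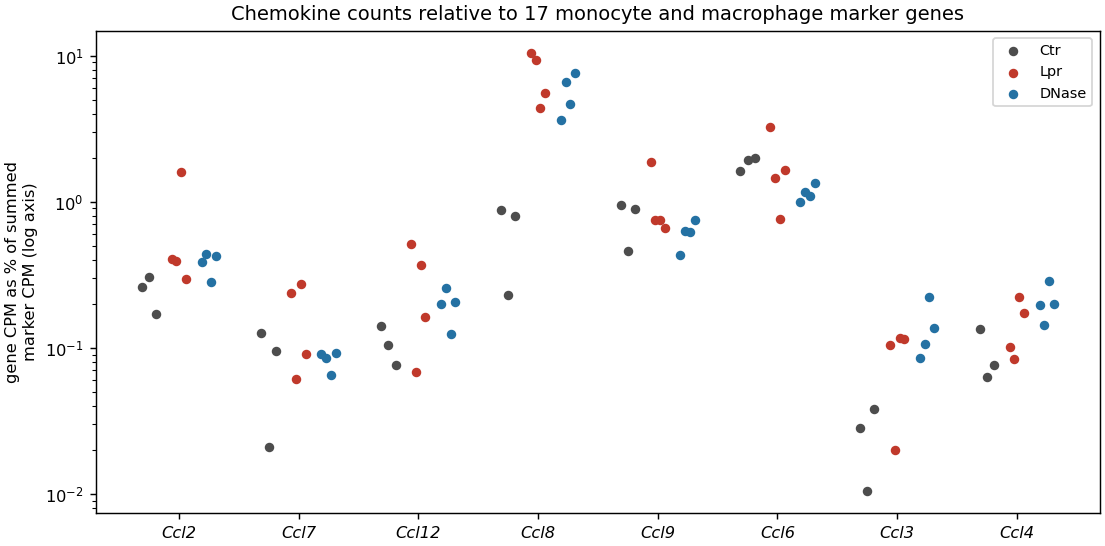
CPM of each chemokine as a percent of the summed CPM of 17 monocyte and macrophage markers in the same kidney, on a log axis, with a point for each kidney. Ccl8 is the gene whose MRL/lpr points, from 3.63% up, lie furthest from its Ctr points, which end at 0.872%.

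Some of the chemokines varied alike among the 8 MRL/lpr kidneys. Pearson's r of log2 CPM, given as a description over 8 kidneys that differ in treatment and include Lpr replicate 3, was 0.90 for Ccl6 and Ccl9, 0.89 for Ccl8 and Ccl9 and 0.88 for Ccl6 and Ccl8. It was 0.89 for Ccl7 and Ccl12, 0.81 for Ccl2 and Ccl7 and 0.60 for Ccl2 and Ccl12. It was 0.75 for Ccl7 and Ccl9 and 0.73 for Ccl3 and Ccl4. The lowest value was -0.25, for Ccl4 and Ccl6. By rank, Spearman's rho was 0.90 for Ccl2 and Ccl7 and 0.86 for Ccl8 and Ccl9, but 0.62 for Ccl6 and Ccl9 and 0.57 for Ccl7 and Ccl12. Several values changed without Lpr replicate 3. Over the other 7 kidneys Pearson's r was 0.93 for Ccl2 and Ccl8 (0.37 with it) and 0.90 for Ccl6 and Ccl7 (0.46 with it). It was 0.59 for Ccl2 and Ccl7 and 0.34 for Ccl2 and Ccl12. For Ccl6 and Ccl9 it was 0.98, for Ccl8 and Ccl9 0.92 and for Ccl3 and Ccl4 0.73.

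By rank, Ccl8 varied with genes of both clusters. Its Pearson's r was 0.88 and 0.89 with Ccl6 and Ccl9. With its neighbours Ccl2 and Ccl7 it was only 0.37 and 0.45 (0.93 and 0.72 without Lpr replicate 3). The values by rank were 0.74 and 0.71 with Ccl2 and Ccl7, 0.67 with Ccl6 and 0.86 with Ccl9. With Ccl12, Pearson's r was 0.31 and the value by rank 0.24. Lpr replicate 1 was high for Ccl6, Ccl9, Ccl8, Ccl7 and Ccl12. Lpr replicate 2 was high for Ccl8 and Ccl6 and low for Ccl3 and Ccl12. Lpr replicate 3 was the highest Lpr kidney for Ccl2, Ccl7, Ccl3 and Ccl4.

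**Figure D5:**
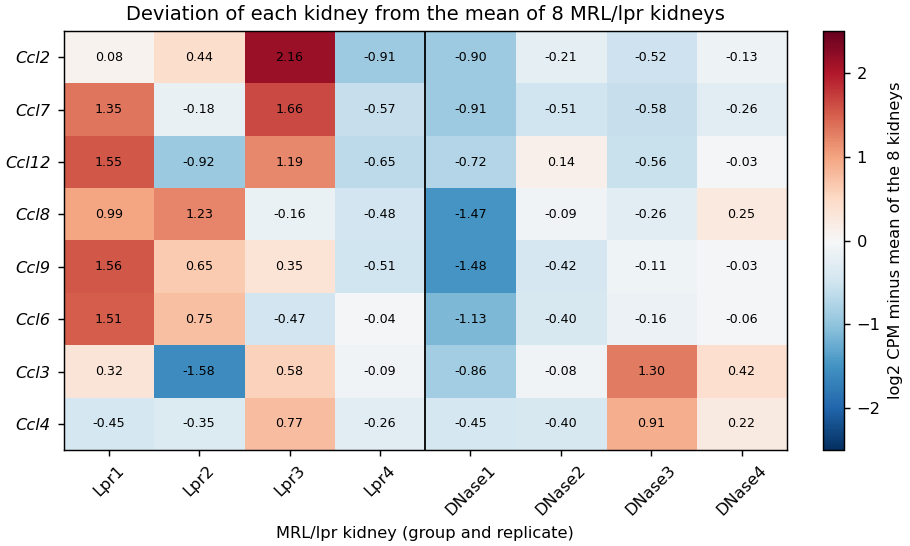
Log2 CPM of each chemokine in each MRL/lpr kidney minus the gene's mean over the 8 kidneys, as colour and printed value, with the Lpr kidneys left and the DNase kidneys right of the line. Lpr replicate 1 is above the mean for 7 of the 8 genes and DNase replicate 1 is below it for all 8, from -0.45 for Ccl4 to -1.48 for Ccl9.

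Among the 13978 genes with a mean of at least 1 CPM in these kidneys, those whose pattern over the 8 MRL/lpr kidneys was most like a chemokine's were found by Pearson's r. Those nearest to Ccl8 were H2-DMa (0.97), which loads peptides on class II molecules, Aldh1b1 (0.97) and Msr1 (0.97), the macrophage scavenger receptor. Those near Ccl2 included Timp1 (0.99), an inhibitor of matrix proteases, and Tnfsf12 (0.99), which encodes the cytokine TWEAK, and without Lpr replicate 3 these values were 0.97 and 0.95. For Ccl4 they were Nabp2, Ltb and Faap24, and for Ccl7 they were Cdc20, Ergic3 and Kifc1. For Ccl12 they were Ear2, Dolk and Slc17a1, and for Ccl6 they included Asb13 and Maz. For Ccl9 they were Maz, Dck and Ncaph, and for Ccl3 they were Fbxo9, Stard7 and Rab14. All these values lay between 0.95 and 1.00, and the highest of 13978 values over 8 kidneys are high by their choice.

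The upstream regions of the genes are shown for Ccl8 and Ccl12, neighbours on the chromosome that varied apart, and for Ccl9 and Ccl6, which varied with Ccl8 by Pearson's r. RefSeq's promoter table (GRCm38.p6) matched 5 of the 8 genes, Ccl3, Ccl6, Ccl8, Ccl9 and Ccl12. The 250 bases before the start are printed 5′ to 3′ on the strand of the gene, with capitals for the motifs searched on both strands. The motifs were the kappaB motif, the GAS motif TTCNNNGAA, the AP-1 motif TGANTCA, the PU.1 motif GAGGAA and the TATA box TATAAA. NF-kappaB binds to the first, Fos and Jun proteins to the AP-1 motif, a myeloid factor to the PU.1 motif and the general transcription machinery to the TATA box. The regions are chr11:82114935-82115184 (plus strand) for Ccl8, chr11:82101595-82101844 (plus) for Ccl12, chr11:83578637-83578886 (minus) for Ccl9 and chr11:83593088-83593337 (minus) for Ccl6.
Ccl8: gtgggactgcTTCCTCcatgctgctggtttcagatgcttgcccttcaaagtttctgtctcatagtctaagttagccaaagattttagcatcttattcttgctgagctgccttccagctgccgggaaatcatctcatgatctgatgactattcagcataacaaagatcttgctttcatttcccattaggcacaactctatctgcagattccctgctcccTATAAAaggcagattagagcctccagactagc
Ccl12: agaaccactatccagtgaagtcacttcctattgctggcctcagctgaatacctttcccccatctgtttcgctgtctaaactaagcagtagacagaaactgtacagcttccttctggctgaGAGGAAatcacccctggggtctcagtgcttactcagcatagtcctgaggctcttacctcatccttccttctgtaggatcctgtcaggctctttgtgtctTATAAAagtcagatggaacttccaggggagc
Ccl9: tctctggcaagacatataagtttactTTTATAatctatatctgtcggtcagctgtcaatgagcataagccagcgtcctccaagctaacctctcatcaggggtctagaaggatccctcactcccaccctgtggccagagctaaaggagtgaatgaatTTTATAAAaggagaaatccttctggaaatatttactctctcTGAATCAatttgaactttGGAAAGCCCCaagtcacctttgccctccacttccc
Ccl6: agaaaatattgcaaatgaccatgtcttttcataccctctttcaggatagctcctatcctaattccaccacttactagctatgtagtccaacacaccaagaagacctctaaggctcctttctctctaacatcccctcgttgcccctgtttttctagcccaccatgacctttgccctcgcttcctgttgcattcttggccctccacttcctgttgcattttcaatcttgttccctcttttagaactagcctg
The TATA box was found in Ccl8, Ccl12 and Ccl9 and in 12.4% of 32851 promoters of the same length. It began 32 bases before the start in Ccl8 and 31 bases in Ccl12. In Ccl9 it was matched at 3 places further upstream, at 224 to 219, 94 to 89 and 92 to 87 bases before the start. The last pair, on opposite strands, overlapped. The PU.1 motif was found in Ccl8, Ccl12 and Ccl3 and in 23.3% of all promoters. The kappaB motif (3.90% of all) and the AP-1 motif (6.75%) were found in Ccl9 alone, and the kappaB match overlapped neither the AP-1 match nor a TATA match. The GAS motif (7.02%) was in none of the 5, and Ccl6 held none of the motifs. A match is a description of letters in this window. Of the pairs of these 5 regions, Ccl8 and Ccl12 were the most alike, with 58.8% identity against 48.4% to 55.2% for the others.

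The receptors of these chemokines were also higher in both MRL/lpr groups than in Ctr. Of 7 receptors listed, 6 were in the table and 5 could be tested, and 4 of the 5 were called higher between Lpr and Ctr and 3 between DNase and Ctr, with all 5 at an adjusted p under 0.05 in both. By that measure alone, 7.27% of all genes were higher between Lpr and Ctr. Ccr2, which receives Ccl2, Ccl7 and Ccl12, was at 7.85, 4.18 and 5.75 CPM in Ctr, at 25.9, 20.6, 17.2 and 17.8 CPM in Lpr and at 12.8, 16.5, 16.5 and 13.4 CPM in DNase. Every Lpr kidney lay above every DNase kidney, which was so for 1.68% of all genes. Ccr2 was higher in Lpr than in Ctr by 1.79 ± 0.27 on the log2 scale (SE, adjusted p = 0.00373 from edgeR), and its log2 fold change from Lpr to DNase was -0.46 (95% interval -0.85 to -0.08, adjusted p = 0.85).

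Ccr1, which receives Ccl3, Ccl6 and Ccl9, was at 1.73, 0.956 and 2.10 CPM in Ctr, at 15.2, 11.6, 7.51 and 4.16 CPM in Lpr and at 3.49, 6.20, 4.97 and 7.83 CPM in DNase. Its order over the Lpr kidneys, with replicate 1 highest and replicate 4 lowest, was that of Ccl9 but not that of Ccl6 or Ccl3. Over the DNase kidneys Ccr1 and Ccl9 differed in order, with replicates 2 and 3 exchanged. Its log2 fold change was 2.598 ± 0.49 between Lpr and Ctr (SE, adjusted p = 0.0114 from edgeR). Ackr2, a decoy that removes CC chemokines, rose by 2.09 on the log2 scale from Ctr to Lpr (adjusted p = 0.0215, edgeR). Ccr1 was not called without Ctr replicate 1 or 2 (adjusted p = 0.0561 and 0.0532), nor was Ackr2 without any 1 of the Ctr kidneys or without Lpr replicate 1 or 2 (0.0526 to 0.0933). Ccr3 was called on at most 1 count in each Ctr kidney and 5 to 20 in each Lpr kidney. Its call was lost without Ctr replicate 1 or 2 (adjusted p = 0.0730 and 0.0637, edgeR). Without Lpr replicate 1, 2 or 4 it did not pass the filter. Ccr8, which receives Ccl8, had 51 counts in Lpr replicate 2 and at most 10 in any other kidney, and did not pass the filter on low counts.

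Genes that induce the chemokines or carry the receptor signal were read from fixed lists. Of 20 inducers tested between Lpr and Ctr, 6 were called higher and none lower. Among them were Irf1 (log2 fold change 2.70), a factor of the interferon response, the cytokines Il1b (3.44), Ifng (4.09) and Tnf (2.12), and the receptor Tnfrsf1b (2.01). Tnf was not called without any 1 of the Ctr kidneys or without Lpr replicate 1 or 2 (adjusted p 0.0723 to 0.173, edgeR), nor was Tnfrsf1b without Ctr replicate 1 or Lpr replicate 2 (log2 fold change 1.89 and 1.70). All 9 genes of receptor signalling and migration passed an adjusted p under 0.05 and 7 were called higher, among them the integrin genes Itgam (3.74) and Itgb2 (3.31) and Rac2 (3.10), which drives leukocyte movement. Between DNase and Lpr none of either list was called, and the medians were -0.31 and 0.05.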

How the data were processed

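Kidney RNA was sequenced as 100 bp paired-end reads. The authors deposited raw gene counts, for which the submitters' processing notes name fastp, HTSeq, mm10 and DESeq2, and FPKM values, which were found to use the same counts with a fixed length per gene. The study's methods name HTSeq for placing reads on reference genes. Any separate aligner and the annotation are not given in the sources used here. Every sample column was used (0 left out).

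Groups were compared in pairs with edgeR 4.0.16 in R 4.3.3 (filterByExpr, TMM, quasi-likelihood test, Benjamini-Hochberg adjustment over all genes tested), and all 8 genes passed the filter. CPM used TMM factors over all 11 libraries, and log2 CPM a prior count of 2. Alternatives were DESeq2 1.42.0, limma 3.58.1 on log2(FPKM + 1) or log2(FPKM + 0.1), other filters and thresholds, and each library left out. Removal of each library's trend with gene length, and the values of other genes and the correlations without single libraries, were chosen after seeing the data. Counts of 3 or fewer were treated as the floor, which covers counting error only. The procedure was tested on simulated data.

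Receptors, monocyte and macrophage markers and other CC chemokines could be named, and of other lists the genes called or, failing that, the 2 with the smallest p. The genes and lists were chosen with earlier results of these data known. Some genes that met these rules are not reported here.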

Additional observations from a re-analysis of the deposited data

Results flagged for a closer look

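Among the 8 chemokines, 1 value stood far from the rest of its group. Ccl4 was at 4.82 CPM in Lpr replicate 3 and between 2.04 and 2.32 CPM in the other Lpr kidneys. The counts of this replicate fell with gene length, as given above. The log2 fold change of Ccl4 between Lpr and Ctr was 2.77 without this kidney. Of 90 groups of 4 kidneys examined, 7 held such a value, and chance alone gives about 1 in 20. That rate does not allow for a shift shared by many genes of 1 kidney.

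The other values concerned related genes. Ccl20 was at 4.403 CPM in Lpr replicate 3 and between 0.0566 and 0.286 CPM in the other Lpr kidneys. Ccl24 was at 8.28 CPM in Lpr replicate 1 and between 0.234 and 0.566 CPM elsewhere in the group. Ccl1 was at 0.537 CPM in Lpr replicate 1 against 0.0521 to 0.0591 CPM. Ccl25 was at 3.99 CPM in Lpr replicate 3 against 2.06 to 2.19 CPM, and at 1.87 CPM in DNase replicate 1 against 2.33 to 2.40 CPM in the other DNase kidneys. Adgre1 was at 44.0 CPM in DNase replicate 3 against 35.5 to 36.6 CPM.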

How the results depend on the processing

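The fold changes of the 8 genes kept their direction and their side of an adjusted p of 0.05 in 116 of 128 alternatives between Lpr and Ctr and in 125 of 128 between DNase and Ctr. No direction changed in these 2 comparisons. Between DNase and Lpr no alternative brought an adjusted p under 0.05, and the direction changed in 2 of 136, both without DNase replicate 3. With 1 kidney left out, that log2 fold change lay between -0.095 and 0.68 for Ccl3 and between -0.21 and 0.54 for Ccl4.

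Between Lpr and Ctr, 929 genes were called, against 213 with limma on log2(FPKM + 1), 204 with that and no filter, 565 with log2(FPKM + 0.1), 1440 at an absolute log2 fold change above 1 and 1639 with no fold threshold. The 8 called chemokines became 4 with limma on log2(FPKM + 1) and 3 with no filter, where Ccl7 and Ccl12 had adjusted p of 0.0863 and 0.0656, and 5 to 8 when 1 kidney was left out. Adding 1 to FPKM shrinks the fold change of genes with low values. Between DNase and Ctr, 967 genes were called, against 190 with limma on log2(FPKM + 1), with or without the filter, 549 with log2(FPKM + 0.1), 1751 at a fold threshold of 1 and 3493 with none, and the 6 called chemokines became 2 with limma on log2(FPKM + 1), with or without the filter. Between DNase and Lpr, DESeq2 called 5 genes, 2 higher and 3 lower, and edgeR 0, with 886 at an unadjusted p under 0.05, and the cause was not tested.

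With the length trend removed, 8, 0 and 6 chemokines were called in the 3 comparisons, as before, and the log2 fold change of Ccl2 between DNase and Lpr was -0.87. Replicate numbers are not a stated pairing of the kidneys. The correlation of same-numbered deviations lay between -0.28 and 0.16. It was not set against kidneys of different numbers, so it cannot decide whether kidneys were paired. With the replicate block, 8, 0 and 5 chemokines and 892, 0 and 849 genes were called between Lpr and Ctr, DNase and Lpr, and DNase and Ctr, and the adjusted p between DNase and Ctr was 0.101 for Ccl7 and 0.083 for Ccl9. Depth limits Ccl3 and Ccl7 in Ctr, which had as few as 1 and 2 counts.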

Other observations

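Of the other CC chemokine ligands in the table, 14 in number, 10 could be tested between Lpr and Ctr and 2 were called, both higher. Ccl5, a chemokine made by T cells and macrophages, was at 3.02, 1.85 and 2.04 CPM in Ctr, at 17.5, 99.8, 56.9 and 23.7 CPM in Lpr and at 19.7, 24.2, 34.3 and 30.6 CPM in DNase. Its log2 fold change was 4.44 ± 0.68 between Lpr and Ctr and 3.55 ± 0.25 between DNase and Ctr (SE, adjusted p = 0.0042 and 1.9e-05, edgeR). Ccl19, which guides T cells and dendritic cells, had log2 fold changes of 2.71 ± 0.43 and 2.34 ± 0.29 (SE) in these comparisons. Per length, Ccl5 was at 93.2 ± 73.3 FPKM in Lpr (SD, n = 4), below Ccl8.

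Ccl28, a chemokine of epithelia, was at 6.53, 6.44 and 35.4 CPM in Ctr, at 9.30, 9.56, 14.7 and 2.75 CPM in Lpr and at 1.76, 3.39, 0.807 and 3.55 CPM in DNase. Its log2 fold change between DNase and Ctr was -2.76 ± 0.68 (SE, adjusted p = 0.0182 from edgeR), and it rested on Ctr replicate 3, since it was -1.45 without that kidney (adjusted p = 0.0747). Between DNase and Lpr it was -1.94 (adjusted p = 0.82, edgeR), and the groups overlapped. Ccl27b was also called higher between DNase and Ctr, on at most 2 counts in each Ctr kidney and 6 to 19 in each DNase kidney, and was not called without Ctr replicate 1 or 3 (adjusted p = 0.0534 and 0.0541, edgeR). Without DNase replicate 2, 3 or 4 it did not pass the filter.

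Markers of other leukocytes were counted in the same way. Of 8 T cell markers, 8 were called higher between Lpr and Ctr and 7 between DNase and Ctr, with a summed level of 5.51 to 7.68 CPM in Ctr, 79.6 to 168 CPM in Lpr and 78.3 to 126 CPM in DNase. Of the neutrophil markers tested, 3 of 5 were called higher in each of these comparisons. Of 5 B cell markers 2 and 4 were called higher, and of 6 dendritic cell markers 2 and 2. Another dendritic cell marker was called lower between DNase and Ctr. None of the endothelial, tubule and podocyte or fat tissue markers was called. F13a1, a gene of monocytes and macrophages, was lower in every DNase kidney than in any Lpr kidney, with means of 2.17 and 8.69 CPM and a 95% interval of the log2 fold change from -2.86 to -1.14 (adjusted p = 0.82, edgeR).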
